A study of Mus musculus with 4 samples.

Results

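Nuclear receptors are the transcription factors through which hormones, vitamins and lipids act on genes, and 42 genes of this family were followed in mouse embryonic hearts that carry a conditional deletion of Hdac3. The 42 genes were chosen by name as receptors that are known or likely to use the corepressor NCoR. Every probe carrying 1 of these names was taken from the arrays, and 69 of the 39429 probes (42 of the 30199 gene names) met that rule. Where a gene had several probes, the probe with the highest mean signal stood for it. A gene was tested if the scanner software marked its probe as well above background in all 4 mutant channels or in all 4 control channels, which held for 34 of the 42 genes and not for the other 8.

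Each of the 4 two-colour Agilent arrays set RNA from a pool of 3 mutant hearts against RNA from a pool of 3 control hearts, all microdissected at embryonic day 9.5. The mutants carried Nkx2.5Cre together with Hdac3f/f, and the controls were littermates with Hdac3f/f, so that both groups were homozygous for the floxed allele, in which Cre recombinase removes part of the gene. Both groups had a mixed CD1/B6/129 background, and no agent was given. Nkx2.5Cre expresses the recombinase where Nkx2-5 is expressed, in cardiac progenitors and their descendants, so cells of the heart from other sources keep a working Hdac3 gene. Loss of Hdac3 and the presence of the Cre allele cannot be told apart in this design, since no group carried Cre with a working Hdac3 gene. The labels call the 4 pairs of pools biological replicates. Because hearts were pooled, p-values measure the spread between pools and not between embryos.

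As background, many nuclear receptors sit on DNA without their ligand and hold their target genes silent by recruiting corepressors such as NCoR (Ncor1). This large protein carries Hdac3, the deacetylase that removes acetyl groups from histones, and it also activates it. When ligand binds, the receptor releases the corepressor and takes up coactivators instead. Retinoic acid receptors and COUP-TFs are best known in the early heart for their parts in the posterior and venous end, while estrogen-related receptors and PPARs control fatty acid oxidation and mitochondrial genes in heart muscle.

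All values below are log2 ratios of mutant over control from the authors' deposited table, in which 0 means equal signal and 1 means a doubling. Their direction is likely and not settled. According to the labels every mutant pool was dyed with Cy5, but the table's columns, named as mutant against wild type, follow Cy5 over Cy3 on arrays 1 and 2 (slopes of 1.04 and 1.02 over bright probes) and Cy3 over Cy5 on arrays 3 and 4 (slopes of -0.992 and -1.02). Hdac3 itself read -0.22, -0.50, -0.52 and -1.15 on arrays 1 to 4 with the table's signs, a mean of -0.60 ± 0.39 (SD, n = 4), and its mean was 0.24 when the dye labels were followed on every array. Whether its probe lies inside the deleted part was not examined. The tissue label was checked against 15 genes of working heart muscle, all past the background filter, whose summed signal was 934954 to 1268990 in the mutant channels and 838587 to 1309970 in the control channels. For 3 of the arrays the description field speaks of embryonic stem cells, although title, source and genotype give hearts. Of 10 genes of pluripotent cells, Pou5f1 and Dppa3 were not well above background in any channel, while the other 8, which include Nanog, Utf1, Zfp42 and Dppa5a, passed the filter, with means of both signs. The share of probes marked as above background was 66.6% to 71.2% over the 8 channels.

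No nuclear receptor gene passed the test. With limma and Benjamini-Hochberg adjustment over all 19619 genes, 0 of 34 receptor genes had an adjusted p under 0.05, and the same held for 0 genes of the whole array (0.00% higher and 0.00% lower). The smallest adjusted p of a receptor gene was 0.586 and that of any gene was 0.254. Without adjustment, 5 receptor genes lay above 0 and 3 below 0 at p under 0.05, beside 3.88% of all genes above and 4.58% below. Counting signs instead, 8 of the 34 lay above 0 on all 4 arrays, beside 10.0% of all genes, and 3 lay below 0 on all 4, beside 9.72%. The mean was above 0 for 24 of the 34 (53.5% of all genes) and below 0 for 10 (46.5%). The median receptor ratio was 0.11 where that of all genes was 0.011, and it was 0.047, 0.078, 0.26 and 0.035 on arrays 1 to 4, so array 3 read highest. Without array 3 the receptor median was 0.055, with array weights 0.067, and with the dye labels followed on every array -0.0083. Signs alone cannot settle a single gene here, since an exact two-sided sign test of 4 pairs cannot give a p below 0.125.

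**Figure D1:**
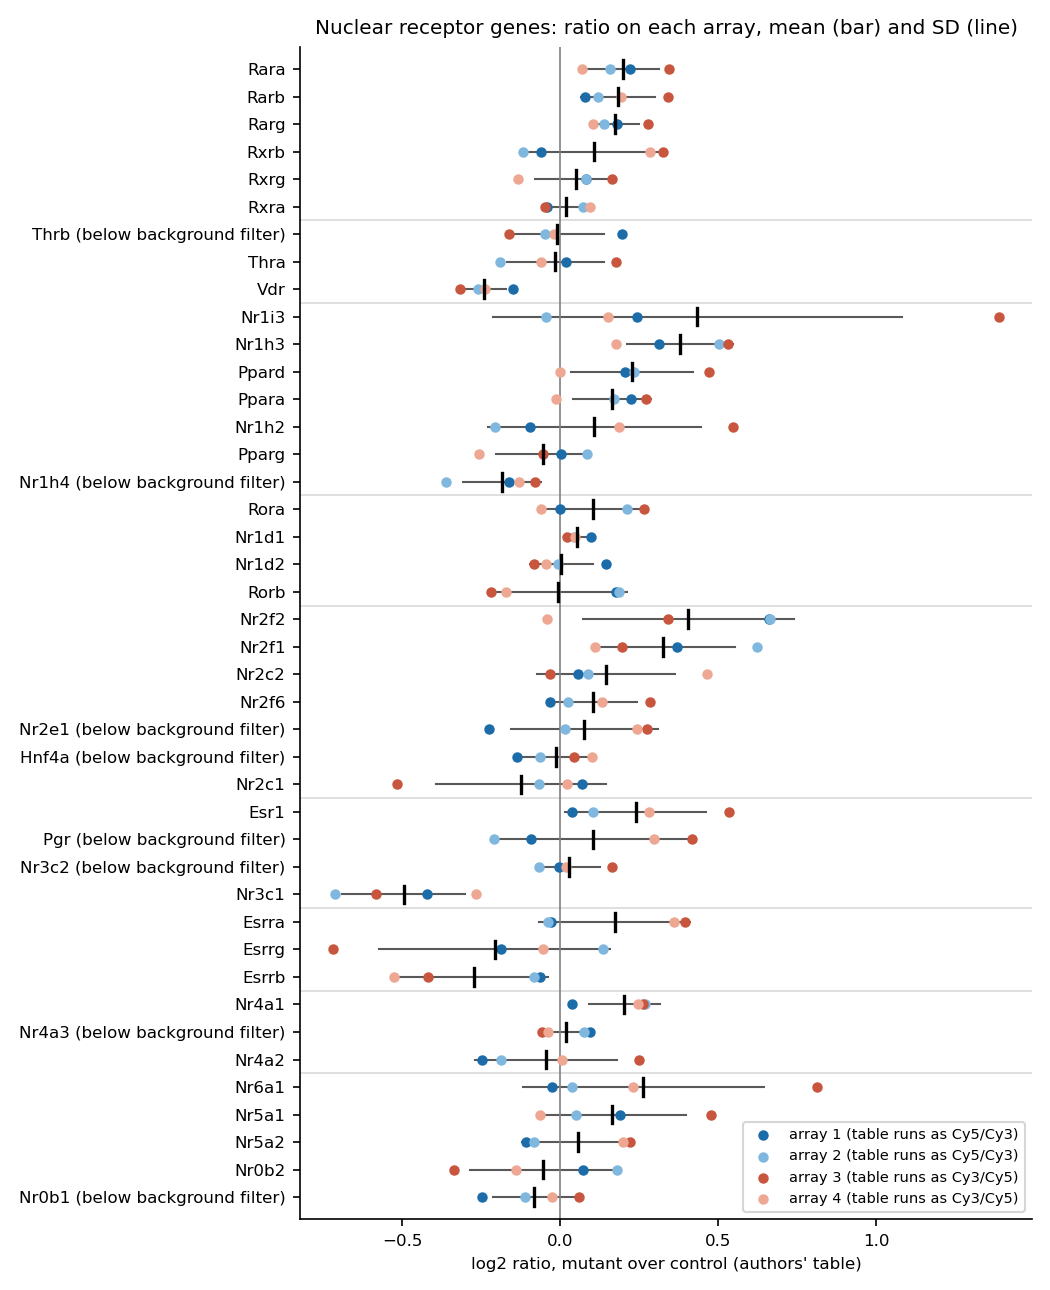
Log2 ratio of mutant over control (horizontal axis) for each of the 42 receptor genes, grouped by family with thin lines between families; points are the 4 arrays, coloured by how the authors' table runs against the dyes, the black bar is the mean and the dark line spans 1 SD on each side. Nr3c1 lies farthest below 0 and Nr1i3 has the widest spread, from -0.046 to 1.39, with array 3 standing alone.

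The plot of ratios by array shows that the points of most receptors straddle 0. The 11 genes whose 4 points share a sign were Rara, Rarb, Rarg, Nr1d1, Nr1h3, Nr2f1, Esr1 and Nr4a1 above 0 and Vdr, Esrrb and Nr3c1 below it. Across the 34 genes the means went from -0.50 for Nr3c1 to 0.43 for Nr1i3. These are heart pools, and fewer cells of a type and less RNA per cell cannot be told apart in any of the values.

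The retinoid receptors bind retinoic acid (Rara, Rarb, Rarg) or pair with many other receptors (Rxra, Rxrb, Rxrg). All 3 retinoic acid receptor genes lay above 0 on all 4 arrays, by small amounts, and the RXR genes did not. Under the dye labels as given, their means lay below 0, at -0.0088 for Rara, -0.0845 for Rarb and -0.0155 for Rarg. The ratios of Rara, the broadly expressed receptor, were 0.22, 0.16, 0.34 and 0.069, a mean of 0.20 ± 0.12 (SD, n = 4), which is a ratio of 1.15 (limma adjusted p = 0.586). Rarb, whose own transcription is a classical response to retinoic acid, read 0.079, 0.12, 0.34 and 0.19, with a mean of 0.18 ± 0.12. The next brightest Rarb probe had a mean of -0.24. Rarg read 0.18, 0.14, 0.28 and 0.10, with a mean of 0.17 ± 0.076. In each of these receptors array 3 was the highest, and the lowest was array 4 for Rara and Rarg and array 1 for Rarb.

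Their partners did not share this pattern. Rxra read -0.043, 0.073, -0.048 and 0.095 with a mean of 0.019 ± 0.075, and the 95% interval of that mean, from the SD of the 4 arrays, went from -0.10 to 0.14. Rxrb went from -0.12 to 0.33 with a mean of 0.11, and its arrays 1 and 2 lay below 0 while arrays 3 and 4 lay above it. Rxrg, the RXR with the narrowest tissue range, went from -0.13 to 0.17 with a mean of 0.049.

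The promoter of Rarb is shown because it holds the motif through which retinoic acid receptors are known to act on this gene, and that of Cyp26a1, the enzyme that clears retinoic acid, because it was the other match among the receptors and the retinoid genes. The motif searched was DR5, a pair of core motifs in the same direction and 5 bases apart, on both strands and within 250 bases before a start site. Each of the pair could be AGGTCA, the textbook core motif of the family, or 1 of 3 forms of it that differ in the first 3 bases. These were AGTTCA, the form found in many retinoid genes, then GGGTCA, and as the last form GGTTCA. It was found in 29 of 32851 RefSeq promoters (0.0883%), which included 1 of the 39 receptor genes matched and 1 of the 13 retinoid genes matched. The sequences are RefSeq's on GRCm38.p6, at chr14:16575477-16575726 on the minus strand for Rarb and at chr19:37697558-37697807 on the plus strand for Cyp26a1, written 5′ to 3′ towards the start site. Capitals mark the core motifs, which lie 53 to 37 bases before the start in Rarb and 32 to 16 bases before it, on the opposite strand, in Cyp26a1.
Rarb: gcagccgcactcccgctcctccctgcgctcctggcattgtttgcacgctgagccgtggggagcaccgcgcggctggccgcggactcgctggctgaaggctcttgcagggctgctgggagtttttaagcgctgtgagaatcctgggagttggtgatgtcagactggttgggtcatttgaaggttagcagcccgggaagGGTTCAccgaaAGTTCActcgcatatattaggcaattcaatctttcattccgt
Cyp26a1: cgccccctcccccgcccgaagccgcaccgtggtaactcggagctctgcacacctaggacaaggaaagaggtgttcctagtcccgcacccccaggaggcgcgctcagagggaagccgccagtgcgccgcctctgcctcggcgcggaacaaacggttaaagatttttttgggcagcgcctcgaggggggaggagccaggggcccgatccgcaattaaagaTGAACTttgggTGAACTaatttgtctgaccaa

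The single core motif AGGTCA, on either strand and counted also where it overlaps another motif, was present in 11 of the 60 windows of the matched receptor genes (18.3%), beside 14% of all windows, and in 10 of the 39 genes (25.6%), beside 15.8% of all genes. Among the receptors above 0 on all 4 arrays it was found in Rarg, 225 to 220 bases before the start at chr15:102257523-102257772 (GRCm38.p6, minus strand), where capitals mark it on the opposite strand.
Rarg: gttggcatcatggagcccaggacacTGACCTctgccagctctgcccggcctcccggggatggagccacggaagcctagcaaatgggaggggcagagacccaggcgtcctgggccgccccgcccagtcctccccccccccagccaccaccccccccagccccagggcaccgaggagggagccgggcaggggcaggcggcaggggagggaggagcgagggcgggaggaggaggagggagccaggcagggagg
A match describes the letters of the window and was not tested as a binding site in these hearts.

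Cyp26a1, whose promoter shares the DR5 motif with that of Rarb, read -0.35, 0.67, 0.084 and 0.24, a mean of 0.16 ± 0.42 with array 1 below 0. Its mean was close to that of Rarb and its spread wider, and the difference between these genes was not tested. Of 20 retinoid supply and target genes past the filter, 14 had a mean above 0 (beside 53.5% of all genes) and 6 below (46.5%). On all 4 arrays, 7 lay above 0 (beside 10.0% of all genes) and 1 below (9.72%). The median was 0.14, and 0 of 20 had an adjusted p under 0.05 with limma. Under the dye labels as given, 12 of 20 lay above 0 and the median was 0.017. Hoxa3, a Hox gene of the pharyngeal region, had the largest values of the list, 0.87, 0.73, 0.45 and 0.39, with a mean of 0.61 ± 0.23. Cyp26b1, a second enzyme that degrades retinoic acid, had a mean of 0.42 ± 0.26 and also lay above 0 on all 4 arrays.

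Other retinoid genes above 0 on all 4 arrays were Rbp4, the retinol carrier of plasma, with a mean of 0.32 ± 0.21, and Dhrs3, an enzyme that turns retinal back to retinol, with a mean of 0.25 ± 0.086. Aldh1a2, the main enzyme that makes retinoic acid in the embryo, read 0.18, -0.54, 0.011 and 0.15, and its mean was -0.051 ± 0.33. Markers of the liver bud and visceral endoderm, cells that also make Rbp4, lay above 0 in 8 of 10 genes past the filter with a median of 0.29, which was 0.086 under the dye labels as given. Their summed signal was 2685 to 3869 in the mutant channels and 2337 to 3584 in the control channels, Apoa1 and Foxa1 were not well above background in any channel, and the part of these cells in the Rbp4 value was not tested.

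The thyroid hormone and vitamin D receptors also work as RXR partners. Thra, the thyroid hormone receptor of heart muscle, read 0.018, -0.19, 0.18 and -0.061, and its mean of -0.015 ± 0.15 lay within the spread of the arrays (95% interval -0.26 to 0.23). Thrb was not well above background in any channel. Vdr, the vitamin D receptor, lay below 0 on all 4 arrays with -0.15, -0.26, -0.32 and -0.24, a mean of -0.24 ± 0.071 (limma adjusted p = 0.586). Its probe was dim, with processed signals of 19.2 or less in the mutant channels and of 15.9 to 26.5 in the control channels. The mean moved to -0.11 when the scanner signals were background-corrected with an offset and to -0.60 with the scanner's own processed signals, so its size rests on the handling of dim spots.

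Target lists of these receptors held few genes with a single sign. Of 13 thyroid hormone genes past the filter, 6 had a mean above 0 and 7 below, with a median of -0.0068. Pln, phospholamban, the brake on the calcium pump of the sarcoplasmic reticulum, read -0.32, -0.80, -1.52 and -0.50, a mean of -0.79 ± 0.53, and was below 0 on all 4 arrays. Ttr, transthyretin, a carrier of thyroid hormone in blood, had a mean of 0.36 ± 0.33 and was above 0 on all 4 arrays; it is also 1 of the liver bud and visceral endoderm markers described above. Slc16a10, a thyroid hormone transporter, and Dio2, which activates the hormone, lay below 0 on all 4 arrays by means of -0.10 and -0.077. Of 5 vitamin D targets past the filter, 4 had a mean above 0, 0 had a single sign on all 4 arrays and the median was 0.0385. That median was -0.23 under the dye labels as given and -0.091 without array 3 or without array 4. Cyp24a1, the classical target, was not well above background in any channel.

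Among the lipid and xenobiotic sensors, Nr1h3 was the one gene above 0 on all 4 arrays. It encodes LXR alpha, the oxysterol receptor. Its ratios were 0.31, 0.50, 0.53 and 0.18, a mean of 0.38 ± 0.17, which is a ratio of 1.30 (limma adjusted p = 0.586). In processed signal the mutant channels read 415, 493, 928 and 795 and the control channels 338, 343, 625 and 707, so the mutant pool was higher in each pair while the ranges of the channels overlapped. A second probe in the same gene, at chr2:91024345-91024404 beside chr2:91024250-91024309 (mm9), gave a mean of 0.43. Under the dye labels as given, the mean was 0.026.

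Its paralogue Nr1h2, LXR beta, went from -0.21 to 0.55 with a mean of 0.11 ± 0.34, with arrays 1 and 2 below 0 and arrays 3 and 4 above it. Nr1i3, the constitutive androstane receptor, which is known mainly from liver, read 0.24, -0.046, 1.39 and 0.15. Its mean of 0.43 ± 0.65 was the largest among the 34 genes in the upward direction, and it rests on array 3, since without that array the mean was 0.12.

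The PPAR genes, receptors for fatty acids, were spread around 0. Ppard, the broadly expressed member, read 0.21, 0.23, 0.47 and 0.00, a mean of 0.23 ± 0.19. Ppara, the member that drives fatty acid oxidation, went from -0.012 to 0.27 with a mean of 0.16 ± 0.12, but its other probes past the filter had means of -0.29 and -0.15, so its direction depends on the probe. Pparg, known from fat cells, went from -0.26 to 0.087 with a mean of -0.056.

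Genes that PPARs and estrogen-related receptors are known to activate lay mostly below 0. Of 27 such genes past the filter, 18 had a mean below 0 and 9 above, 10 lay below 0 on all 4 arrays and 2 above (9.72% and 10.0% of all genes), and the median was -0.091, or -0.059 with 19 of 27 below 0 under the dye labels as given. With limma, 0 of 27 had an adjusted p under 0.05, and 5 lay below and 2 above 0 at an unadjusted p under 0.05. Lpl, lipoprotein lipase, which frees fatty acids for uptake, read -0.33, -0.17, -1.19 and -0.66, a mean of -0.59 ± 0.45.

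Ucp3, a mitochondrial carrier, had a mean of -0.48 ± 0.38. The mean of Ckmt2, the mitochondrial creatine kinase of muscle, was -0.23 ± 0.13. Ehhadh, an enzyme of peroxisomal fatty acid oxidation, had a mean of -0.28 ± 0.24. All 3 lay below 0 on every array. Working myocardium markers, which come from the cells that make most of these enzymes, had a median of -0.0165. On arrays 1 to 4 it was 0.085, 0.22, -0.15 and -0.33. The median of the PPAR and ERR targets on the same arrays was -0.11, -0.17, -0.071 and -0.011. With the dye labels followed, 14 of 15 myocardium markers lay above 0 and their median was 0.20. The part of cell makeup in these values was not tested.

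LXR and FXR targets lay more often above 0 with the table's signs, but not under the dye labels as given. Of 12 genes past the filter, 9 had a mean above 0 (beside 53.5% of all genes) and 3 below (46.5%), with a median of 0.081. Under the dye labels as given, 6 lay above 0 and 6 below, with a median of 0.019. Apoe, an apolipoprotein and LXR target, read 0.088, 0.25, 0.51 and 0.15, a mean of 0.25 ± 0.19. Srebf1, which encodes the regulator of fatty acid synthesis, had a mean of 0.24 ± 0.28 and lay above 0 on all 4 arrays. Abcg5, a sterol exporter, lay below 0 on all 4 with a mean of -0.30 ± 0.19, so the single-sign genes of the list did not share a direction. Abca1, the best known LXR target, read 0.19, 0.67, -0.17 and 0.073.

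Rev-erb and ROR receptors act on the same DNA element with opposite effects, Rev-erbs as repressors through NCoR and Hdac3 and RORs as activators, and are core parts of the circadian clock. Nr1d1, Rev-erb alpha, read 0.097, 0.045, 0.021 and 0.048, a mean of 0.053 ± 0.032, above 0 on all 4 arrays but close to the median of all genes. Its probe was also dim, and its mean turned to -0.11 after background correction with an offset. Rora went from -0.061 to 0.26 with a mean of 0.10, and Rorb from -0.22 to 0.19 with a mean of -0.0058.

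Nr1d2, Rev-erb beta, gave different pictures from its probes. The brighter probe read 0.15, -0.008, -0.082 and -0.044, a mean of 0.003 ± 0.10, but the files place it at chr19:40271435-40271494 (mm9), whereas RefSeq places the gene on chromosome 14. The probe at chr14:19037253-19037312 (mm9) read -0.10, -0.15, -0.98 and -0.34, a mean of -0.39 ± 0.40, below 0 on all 4 arrays. The rule for choosing probes took the brighter probe, and the probe on chromosome 14 was looked at after its values were seen. Among the clock genes, 7 of the 12 past the filter had a mean above 0 and 5 below, with a median of 0.0625. Dbp, a clock output gene, read 0.30, 0.34, 0.17 and 0.32, a mean of 0.28 ± 0.076, and a second probe gave 0.32. Arntl, which encodes BMAL1 and is directly repressed by Rev-erbs, read -0.039, -0.083, -0.56 and -0.20, a mean of -0.22 ± 0.24.

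COUP-TFs, encoded by Nr2f1 and Nr2f2, mark the atria and the venous pole of the early heart, and Nr2f2 is also a gene of venous endothelium. Nr2f1 read 0.37, 0.62, 0.20 and 0.11, a mean of 0.33 ± 0.23, which is a ratio of 1.25 (limma adjusted p = 0.586). In processed signal its mutant channels read 4049, 5130, 8361 and 8036 and its control channels 3124, 3288, 7492 and 7492, so mutant exceeded control in each pair. A second Nr2f1 probe, at chr13:78328290-78328349 beside chr13:78328723-78328782 (mm9), had a mean of 0.35.

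Nr2f2 had the larger mean but not a single sign. Its ratios were 0.66, 0.66, 0.34 and -0.043, a mean of 0.41 ± 0.34, or a ratio of 1.32 (limma adjusted p = 0.586). Arrays 1 and 2 both lay above arrays 3 and 4 for these genes, a split along the dye orientation of the table that was found for 7 of the 34 receptor genes (28.2% of all genes). Under the dye labels as given, the means were 0.17 for Nr2f1 and 0.26 for Nr2f2. Values above 0 follow there from that split, since this reading turns the signs of arrays 3 and 4.

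Markers of the atrium and venous pole, a list that includes Nr2f1 and Nr2f2 themselves, lay above 0 in 6 of 8 genes past the filter, with a median of 0.24 and 3 genes above 0 on all 4 arrays. Their summed signal was 67833 to 88952 in the mutant channels and 75172 to 105885 in the control channels, and Hcn4, a defining gene of the sinus venosus, was not well above background in any channel. Endocardium and endothelium markers lay above 0 in 7 of 11 genes, with a median of 0.22 and sums of 21942 to 47684 in the mutant and 21973 to 29996 in the control channels. Under the dye labels as given, 4 of these 11 lay above 0 with a median of -0.037, and 8 of 8 atrial and venous pole markers lay above 0 with a median of 0.16. The part of either cell type in the COUP-TF values was not tested.

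The other receptors of this branch stayed nearer to 0. Nr2f6 went from -0.031 to 0.29 with a mean of 0.10, and Nr2c2, TR4, from -0.031 to 0.46 with a mean of 0.14. Without array 4 the mean of Nr2c2 was 0.038, and without array 3 that of Nr2f6 was 0.043. Nr2c1, TR2, went from -0.52 to 0.070 with a mean of -0.12, which rests on array 3, since without it the mean was 0.008. Nr2e1, TLX, a receptor of the developing brain, and Hnf4a, a receptor of liver and visceral endoderm, were below the filter.

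Nr3c1, the glucocorticoid receptor, had the mean farthest from 0 of all 34 genes. Its ratios were -0.42, -0.71, -0.58 and -0.27, a mean of -0.50 ± 0.19, or a ratio of 0.709 (limma adjusted p = 0.586). In processed signal the mutant channels read 409, 349, 356 and 615 and the control channels 547, 581, 539 and 721. The mutant pool was thus dimmer in each pair, and only the brightest mutant value overlapped the control range. Its other probe was below the filter and had a mean of -0.018. The mean of the brighter probe was -0.072 under the dye labels as given. In absolute size its mean lay at the 98.5th percentile of all genes tested.

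Glucocorticoid target genes did not lean in either direction. Of 12 genes past the filter, 6 had a mean above 0 and 6 below, and the median was 0.0175. Ddit4, a stress-induced inhibitor of growth signalling, lay above 0 on all 4 arrays with a mean of 0.23 ± 0.14. Dusp1, a phosphatase that is a classical target, lay below 0 on all 4 with a mean of -0.19 ± 0.14. Fkbp5 and Tsc22d3, which are among the most used readouts of this receptor, had means of 0.041 and -0.0032 with signs that differed between arrays.

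The remaining steroid receptors were near the limit of detection. Esr1, the estrogen receptor, read 0.036, 0.10, 0.54 and 0.28, a mean of 0.24 ± 0.22, with both pairs of arrays above 0 but arrays 3 and 4 higher. Its probe was dim, and its mean was 0.11 after background correction with an offset and 0.59 with the scanner's processed signals. Pgr, the progesterone receptor, was not well above background in any channel, and Nr3c2, the mineralocorticoid receptor, was so on 2 arrays in the mutant channel and 0 in the control channel.

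Estrogen-related receptors, orphan receptors that drive mitochondrial genes, did not share a direction. Esrra read -0.028, -0.039, 0.40 and 0.36, a mean of 0.17 ± 0.24, with arrays 1 and 2 just below 0 and arrays 3 and 4 above it. Esrrb, known also as a pluripotency factor, read -0.065, -0.082, -0.42 and -0.53, a mean of -0.27 ± 0.23 and below 0 on all 4 arrays. Esrrg, the member most tied to heart muscle, read -0.19, 0.14, -0.72 and -0.055, a mean of -0.21 ± 0.37, and its second probe had a mean of -0.27. Array 3 was the lowest for Esrrg, and without it the mean was -0.036. Pluripotency genes, a list that includes Esrrb, had a median of -0.0076, with 4 of 8 means above 0 and summed signals of 2604 to 5896 in the mutant and 2596 to 4051 in the control channels.

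Nr4a receptors are immediate early genes, induced within minutes by many stimuli and active without a known ligand. Nr4a1 read 0.036, 0.27, 0.26 and 0.25, a mean of 0.20 ± 0.11, so arrays 2 to 4 lay close together and array 1 apart from them. Nr4a2 went from -0.25 to 0.25 with a mean of -0.045, and Nr4a3 was not well above background in any channel. Of 15 other immediate early genes past the filter, 10 had a mean above 0 and 5 below, with a median of 0.054. Jun, a subunit of AP-1, had a mean of 0.30 ± 0.26 and lay above 0 on all 4 arrays. Fosb had a mean of 0.11 ± 0.088 with the same sign on every array. Klf4 lay below 0 on all 4 with a mean of -0.13 ± 0.094.

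Nr5a1, the regulator of steroid hormone synthesis, went from -0.064 to 0.48 with a mean of 0.16, and Nr5a2, its relative in gut and liver, went from -0.11 to 0.22 with a mean of 0.057. Nr6a1, the germ cell nuclear factor that silences Pou5f1, read -0.026, 0.037, 0.81 and 0.23, a mean of 0.26 ± 0.38. It was well above background on 4 arrays in the mutant and 3 in the control channel, and without array 3 its mean was 0.080. Nr0b2, the small heterodimer partner, went from -0.34 to 0.18 with a mean of -0.0555, and Nr0b1, its paralogue in the adrenal and gonad, was not well above background in any channel.

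Steroidogenic genes, most of them known targets of Nr5a1 that Nr0b1 represses, had the highest median of the pathway lists, 0.39. The list also holds Wt1, an epicardial marker. Of its 8 genes past the filter, 7 had a mean above 0 (53.5% of all genes) and 5 lay above 0 on all 4 arrays (10.0%). With limma, 0 of 8 had an adjusted p under 0.05, and 4 lay above 0 at an unadjusted p under 0.05 (3.88% of all genes). The list median was 0.33 with a filter in both channels. Inha, the inhibin alpha subunit, had the tightest values, 0.51, 0.50, 0.44 and 0.35, with a mean of 0.45 ± 0.072. Star, which carries cholesterol into mitochondria, read 0.072, 0.62, 0.99 and 0.58, a mean of 0.57 ± 0.38, and its second probe had a mean of 0.028. Cyp17a1, an enzyme of androgen synthesis, read 0.30, 0.27, 2.81 and 0.80, so its mean of 1.05 ± 1.20 rests on array 3. Hsd3b1, another enzyme of the pathway, had a mean of 0.33 ± 0.32. The list median was -0.095 under the dye labels as given.

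Of the corepressor complex itself, Hdac3 was the gene farthest from 0, with the values given above. Tbl1x, a subunit that bridges NCoR to histones, lay above 0 on all 4 arrays with 0.19, 0.25, 0.58 and 0.28, a mean of 0.33 ± 0.17 (limma adjusted p = 0.586). Its paralogue Tbl1xr1 read 0.27, 0.32, 0.48 and -0.067, a mean of 0.25 ± 0.23. Gps2, a small subunit, had a mean of 0.11 ± 0.12 with array 4 below 0. Ncor1 read 0.014, 0.038, -0.32 and -0.33, a mean of -0.15 ± 0.20, and its other probes had means from -0.19 to 0.12.

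Corepressors outside this complex had a median of -0.056, with 5 of 11 means above 0 and 6 below. Hdac2, a deacetylase of other corepressor complexes, lay below 0 on all 4 arrays with a mean of -0.30 ± 0.21, and Hdac1 did so by less, with a mean of -0.0845 ± 0.044. Coactivators had a median of 0.054, with 13 of 20 means above 0 and 7 below, but 8 of 20 lay above 0 without array 3, where the median was -0.021. Kat2b, the acetyltransferase PCAF, read -0.35, -0.47, -1.26 and -0.73, a mean of -0.70 ± 0.41, the lowest of the coactivators. Ncoa1, a steroid receptor coactivator, also lay below 0 on all 4 arrays with a mean of -0.18 ± 0.10, and 0 of 20 coactivators lay above 0 on all 4. Among further nuclear receptors, Nr1i2 and Nr2e3 were not well above background in any channel, and the 3 past the filter had a median of -0.16 with 0 of 3 showing a single sign.

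**Figure D2:**
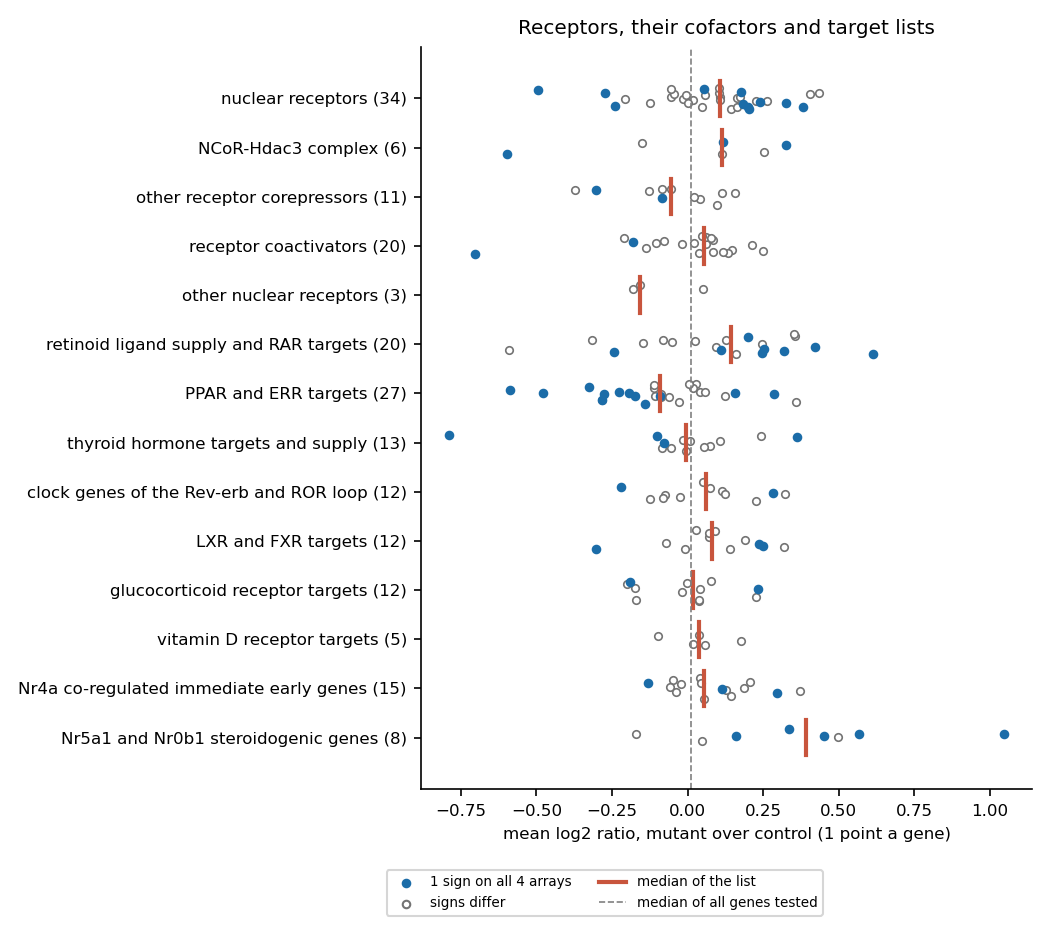
Mean log2 ratio of mutant over control over 4 arrays (horizontal axis) for every gene past the background filter, 1 point per gene, in the receptor set and in each list of cofactors and targets, with the number of genes in brackets; filled points share a sign on all 4 arrays, red bars are list medians and the dashed line is the median of all genes tested. The steroidogenic list has the highest median, 0.39, and the PPAR and ERR targets have 10 filled points below 0 against 2 above.

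The plot of cofactor and target lists places the receptors' median of 0.11 beside those of the genes they act with. List medians went from -0.16 for the further nuclear receptors, which rests on 3 genes, to 0.39 for the steroidogenic genes, and the lists were chosen with earlier results of these data known. Values of single genes spread more widely than the medians, from Pln at -0.79 to Cyp17a1 at 1.05.

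Probes of the same gene show whether a sign depends on the rule for choosing probes. They share the arrays and the table's signs, so they cannot check which reading of the dyes holds. There were 14 receptor genes with more than 1 probe past the filter. The probes of Nr1h3, Nr2f1, Rara, Rxrg, Nr2c1, Nr2c2, Nr4a2, Esrrg and Thra had means of a single sign. Those of Rarb, Ppara, Rxra, Rorb and Nr1d2 did not, though the brightest probes of Rxra, Rorb and Nr1d2 had means of only 0.019, -0.0058 and 0.003. For Rarb, which lay above 0 on all 4 arrays by its brightest probe, the next brightest probe had a mean of -0.24 and the dimmest of 0.10. The Rarb probes lie at chr14:17263367-17263426, chr14:17264648-17264707 and chr14:17651424-17651483 (mm9), and which transcript forms they read was not examined.

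**Figure D3:**
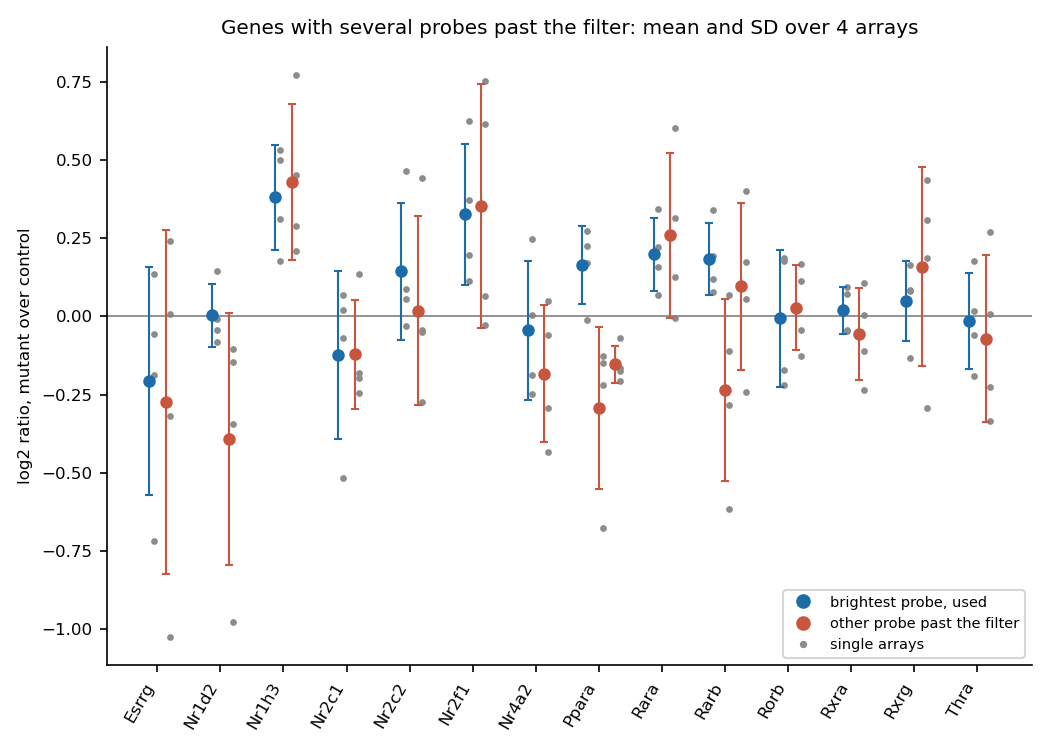
Mean log2 ratio of mutant over control with its SD over 4 arrays (vertical axis) for each probe past the filter of the 14 receptor genes that had several; blue points are the brightest probe, which represents the gene, red points are its other probes and grey dots are single arrays. Nr1h3 and Nr2f1 have means above 0 from both probes, 0.38 and 0.43 for Nr1h3 and 0.33 and 0.35 for Nr2f1, while Ppara has 0.16 from the brightest probe and -0.29 and -0.15 from the others.

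The reading of arrays 3 and 4 decides most of the receptor directions given here. When all 4 arrays were read as the labels state, the mean changed sign for 23 of the 34 receptor genes, which included Rara, Rarb, Rarg, Vdr, Esr1, Esrrb and Nr4a1. For 15 genes this was the only setting, of those fixed for every gene, that turned the sign. A dye term and the choice of filter leave the mean of a tested gene as it is, so those settings could not turn a sign. The share of all genes that turned is not given here, so these counts cannot be read as particular to the receptors. Rxrg, Nr1h3, Rora, Nr2f1, Nr2f2 and Nr3c1 were the 6 whose mean kept its sign in each of the settings fixed for every gene. The reading as labelled and that of the table exclude each other, so a kept sign between them does not make a direction firmer. As labelled, these means were 0.0335, 0.0265, 0.002, 0.17, 0.26 and -0.072. With the dye labels followed, 139 genes of the whole array passed an adjusted p of 0.05 with limma, and 0 of the receptors were among them. Arrays 1 and 2 both lay above arrays 3 and 4 for 7 receptors and both below for 9, beside 28.2% and 28.1% of all genes.

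**Figure D4:**
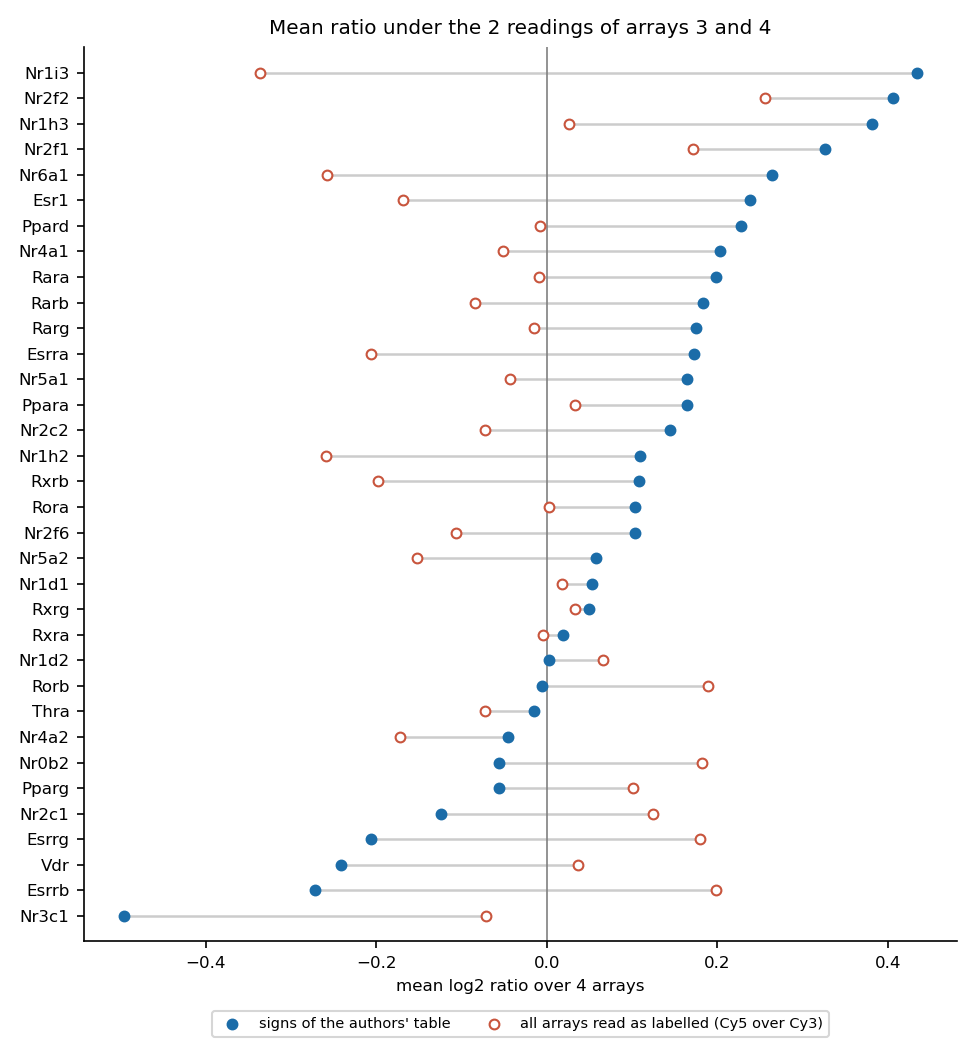
Mean log2 ratio over 4 arrays (horizontal axis) of the 34 receptor genes tested, ordered by mean, with the signs of the authors' table (filled) and with all arrays read as Cy5 over Cy3, as labelled (open). Nr2f2 and Nr2f1 stay above 0 in both readings, at 0.26 and 0.17 as labelled, while Nr3c1 goes from -0.50 to -0.072 and 23 genes change sign.

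Cell type markers were set beside the receptors because a heart pool holds several tissues. Primitive red blood cell markers lay below 0 in 10 of 10 genes past the filter, with a median of -0.29 and summed signals of 226621 to 367081 in the mutant and 336741 to 467931 in the control channels. Proepicardium and epicardium markers lay below 0 in 8 of 9, with a median of -0.18 and sums of 7903 to 12076 against 9062 to 12221. Second heart field and pharyngeal mesoderm markers had a median of 0.15, with 6 of 10 means above 0, and sums of 10983 to 14843 in the mutant and 7173 to 20790 in the control channels. On array 2 these lists read farthest from 0, at -0.61, -0.70 and 0.45. The receptors as a set had a median of 0.078 on array 2 and of 0.26 on array 3, where they read highest. With the dye labels followed, 5 of 10 red cell markers lay below 0 with a median of 0.0073, 6 of 9 epicardial markers lay below 0, and 7 of 10 second heart field markers lay above 0. The part of cell makeup in the receptor values was not tested.

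Foregut endoderm markers lay above 0 in 6 of 6 genes past the filter, with a median of 0.18 and sums of 17369 to 39156 in the mutant and 17736 to 29511 in the control channels, while Nkx2-1 and Shh were not well above background in any channel. With the dye labels followed, 2 of these 6 lay above 0 and the median was -0.0545. Neural crest and neural tube markers had 4 of 6 means above 0, a median of 0.11 and sums of 3587 to 6850 against 3236 to 5039, with Foxd3 below background throughout. Cell cycle genes had a median of -0.052, with 3 of 10 means above 0.

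**Figure D5:**
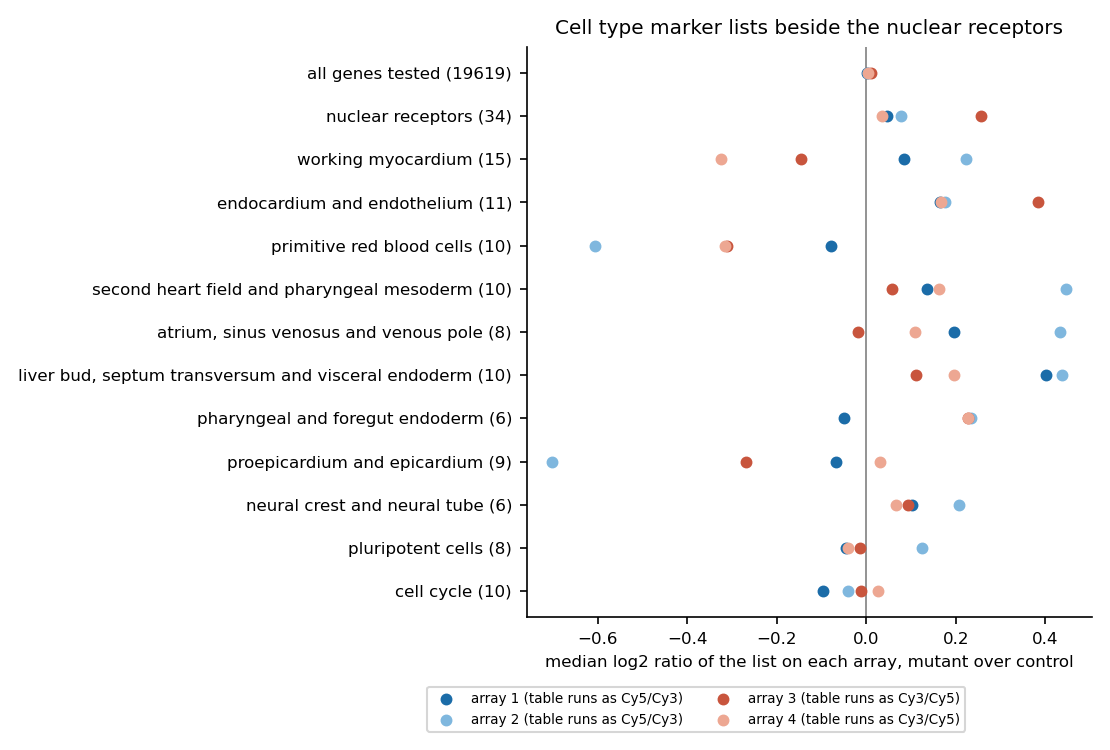
Median log2 ratio of mutant over control on each of the 4 arrays (horizontal axis, 1 point per array) for each cell type marker list, for the receptors and for all genes tested, with the number of genes past the filter in brackets; colours give how the authors' table runs against the dyes. The receptor medians stay between 0.035 and 0.26, while red cell markers go from -0.61 to -0.078 and working myocardium markers from -0.33 to 0.22.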

How the data were processed

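Expression was measured in 4 pairs of heart pools on 4 two-colour arrays of 1 slide. The authors deposited scanner files of Cy3 and Cy5 intensity from Agilent Feature Extraction 11.5.1.1 per the file headers (8.5.1.1 per the submitters' processing notes), with processed intensity, a log10 ratio of Cy5 over Cy3 and flags for background. They also deposited a table of normalized log2 ratios, with a normalization method that the sources used here do not state; its column medians were -0.029, -0.017, 0.017 and 0.023. Its scale and sign follow from the scanner ratios (slopes in the report) and its centring was left as deposited. Rows were matched by probe name, and 153 of 43173 rows were controls.

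The deposited ratios were the main values. A gene was represented by the probe with the highest mean processed signal, and a probe was tested if it was well above background on all 4 arrays in 1 channel, with channels taken as the table runs. This gave 19619 genes. In R 4.3.3 with limma 3.58.1, lmFit and eBayes tested the ratios against 0 with Benjamini-Hochberg adjustment at 0.05. Intervals of 95% come from the SD of 4 arrays. Each array is 1 pair of pools, so the ratio itself pairs the samples.

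The number of arrays limits the precision. On simulated ratios of 19605 genes, 50 genes were shifted by each of 0.5, 1, 1.5 and 2 on the log2 scale. Of these, 46% were called at a shift of 0.5 and 100% at each larger shift, with 8 false calls. The noise was drawn independently for each array and the shifts were set in advance. These shares therefore do not carry over to the real arrays, where 0 genes passed. No spot was saturated. Promoter windows were RefSeq's, on GRCm38.p6, and 39 of 42 genes matched. Probe positions are those of the mm9 array design.

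The members and the lists were chosen with earlier results of these data known. Per-array ratios are given for receptors with 1 sign on all 4 arrays, an unadjusted p under 0.05 or a mean among the 8 farthest from 0, and for Rara, Rarb, Rarg, Rxra, Thra, Nr2f1, Nr2f2, Nr1d1 and Nr1d2 in any case. From each list up to 4 genes of smallest p with 1 sign on all arrays are named, with genes of the corepressor complex. Ppard, Esrra, Esrrg, Cyp26a1, Aldh1a2, Abca1, Fkbp5 and Tsc22d3 fall outside these rules and were chosen after their values were seen. Some genes of the lists are not reported here. Alternatives were the scanner intensities with normexp (offset 50) and loess, the scanner's processed ratios, all arrays as labelled, a dye term, centred columns, no filter or a filter in both channels, the mean of a gene's probes, array weights, unpaired channels and leaving out each array. Other probes of a gene and the Nr1d2 probe on chromosome 14 were added after seeing the data.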

Additional observations from a re-analysis of the deposited data

Results flagged for a closer look

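Among 70 genes looked at, Nr4a1 had 1 array far from the others. Its log2 ratio was 0.036 on array 1, while arrays 2 to 4 lay between 0.25 and 0.27, and the gap to the nearest array was 0.905 of the whole range, above Dixon's critical value for 4 samples. Chance alone marks about 1 in 20 such groups, so 1 among 70 genes is no sign of an unusual array.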

How the results depend on the processing

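With all arrays read as labelled, 139 genes passed the threshold (0 of them receptors) and the median receptor ratio was -0.0083. The list medians then were 0.0255 for other corepressors, -0.041 for coactivators, 0.14 for other nuclear receptors, 0.017 for retinoid genes, 0.10 for thyroid hormone genes, -0.23 for vitamin D targets, -0.10 for glucocorticoid targets, -0.12 for immediate early genes and -0.095 for steroidogenic genes. The receptors that turned had means of -0.0088 (Rara), -0.0845 (Rarb), -0.0155 (Rarg), -0.0043 (Rxra), -0.20 (Rxrb), -0.0078 (Ppard), 0.10 (Pparg), -0.26 (Nr1h2), -0.34 (Nr1i3), 0.19 (Rorb), 0.0365 (Vdr), 0.12 (Nr2c1), -0.072 (Nr2c2), -0.11 (Nr2f6), -0.17 (Esr1), -0.21 (Esrra), 0.20 (Esrrb), 0.18 (Esrrg), -0.0515 (Nr4a1), -0.0435 (Nr5a1), -0.15 (Nr5a2), -0.26 (Nr6a1) and 0.18 (Nr0b2). The other named genes that turned were Hdac3 (0.24), Ncor1 (0.18), Tbl1x (-0.10), Hdac2 (0.15), Kat2b (0.29), Ncoa1 (0.068), Dhrs3 (-0.00175), Lpl (0.34), Ehhadh (0.17), Pln (0.23), Slc16a10 (0.00075), Arntl (0.16), Abcg5 (0.066), Apoe (-0.080), Srebf1 (-0.092), Ddit4 (-0.10), Dusp1 (0.11), Jun (-0.22), Klf4 (0.031), Fosb (-0.0235), Star (-0.22), Hsd3b1 (-0.16) and Cyp17a1 (-0.76). These follow from the sign of arrays 3 and 4.

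For the settings below the cause was not tested. Array weights gave 1 gene past the threshold, medians of -0.047 for glucocorticoid targets, -0.27 for vitamin D targets and 0.21 for steroidogenic genes, and means of -0.025 for Rxrb, 0.0042 for Pparg, -0.070 for Nr1h2, 0.12 for Rorb, -0.048 for Nr5a2 and 0.067 for Nr0b2. Scanner normexp and loess gave medians of 0.086 for retinoid genes and -0.0028 for clock genes, and means of -0.11 for Nr1d1 and -0.022 for Nr1d2. Scanner processed ratios gave a median of -0.54 for other nuclear receptors and means of 0.012 for Thra and 0.014 for Rorb. Each array holds its own pair of pools, and without that pairing (no replicate block) the median of other nuclear receptors was -0.55 and the means were 0.017 for Thra and 0.016 for Rorb, while the block changed no call. A filter in both channels gave a median of 0.0505 for other nuclear receptors, and no filter one of 0.25 for steroidogenic genes. The mean of a gene's probes gave a median of 0.0228 for other corepressors and means of -0.019 for Rxra, -0.094 for Ppara, -0.19 for Nr1d2 and 0.011 for Rorb. Single other probes turned Ppara (-0.29 and -0.15), Rarb (-0.24), Rorb (0.028), Rxra (-0.0575) and, by its chromosome 14 probe, Nr1d2 (-0.39).

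Leaving out each array in turn gave 0 to 2 genes past the threshold, with 2 without array 1 and 0 receptors. The medians ranged from -0.065 to 0.00067 for other corepressors, 0.055 to 0.15 for the receptors, 0.13 to 0.19 for retinoid genes, -0.091 to 0.11 for vitamin D targets, -0.065 to 0.033 for thyroid hormone genes, -0.021 to 0.090 for coactivators and -0.055 to 0.057 for glucocorticoid targets. The means ranged from -0.006 to 0.042 for Rxra, -0.078 to 0.044 for Thra, -0.10 to 0.012 for Pparg, -0.045 to 0.031 for Nr1d2, -0.038 to 0.21 for Nr1h2, -0.070 to 0.065 for Rorb, -0.19 to 0.008 for Nr2c1, -0.14 to 0.023 for Nr4a2 and -0.13 to 0.038 for Nr0b2. A dye term and centred columns turned 0 results. That carries no weight, since the table runs each way on as many arrays, so a dye term cannot move a mean. Centring shifted all means alike and by little.

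With 4 pairs of pools and probes as dim as those of Vdr, Nr1d1, Rxra and Esr1, small differences were not measurable here.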
